A study of Mus musculus with 10 samples.

Results

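Genes that carry glucose into the cell, break it down to pyruvate and feed pyruvate into the citric acid cycle were followed in the hearts of mice depleted of Ft1. The group holds 40 genes chosen by name. It has 2 glucose transporters, 11 genes of upper glycolysis from hexokinase to triose phosphate isomerase, 7 genes of lower glycolysis, 2 subunits of lactate dehydrogenase, 6 genes around pyruvate dehydrogenase and 12 genes of the citric acid cycle. Of the 40 genes, 39 have a row in the 3 deposited tables, which together hold 17575 genes. Eno1, the enolase found in most tissues, was not analysed here.

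Hearts came from male mice at 1 week of age, with 3 WT, 3 Ft1ko and 4 Ft1sm22ko animals. In Ft1ko mice a floxed allele of Ft1, whose mouse gene symbol is Aktip, was deleted in the whole body with CMV-cre. In Ft1sm22ko mice the same floxed allele was deleted with sm22-cre, which is driven by the promoter of Tagln, a gene of smooth muscle that is also active for a time in the embryonic heart muscle. RNA was made from cardiac tissue with all its cell types, so that fewer cells of a type and less RNA per cell cannot be told apart. The authors fitted DESeq2 to each pair of groups, and for each gene their deposited tables hold a mean normalized count over all hearts compared, a log2 fold change, its standard error (SE) and a Wald test p. They hold no value for a single heart, so the spread between hearts is known only through the SE. Group levels were worked out here from the mean and the fold change, and can be compared only within a table. A gene is called changed where its p, adjusted by Benjamini-Hochberg over all genes of the table, is under 0.05. Both mutants were compared with the same 3 WT hearts.

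Aktip was lower in the hearts of both mutants, by 1.93 on the log2 scale in Ft1ko (log2 fold change -1.93, SE 0.27, DESeq2 adjusted p = 5.08e-11) and with a log2 fold change of -1.21 in Ft1sm22ko (SE 0.27, DESeq2 adjusted p = 1.07e-04). Rn45s, the precursor of ribosomal RNA, made up 31.1% of the summed levels in WT and 2.29% in Ft1ko, and in the table of Ft1sm22ko 31.4% in WT and 2.53% in the mutant. All 6 abundant noncoding RNAs that were followed, Rn45s among them, were lower in both mutants, with medians of -3.60 in Ft1ko and -4.51 in Ft1sm22ko. Without Rn45s, the others held 2.04% of the summed levels in WT and 0.622% in Ft1ko, and 2.06% in WT and 0.194% in Ft1sm22ko. WT thus differed in RNA composition beyond 1 gene. Over all genes the log2 fold change had a median of 0.13 in Ft1ko and 0.06 in Ft1sm22ko, and over genes averaging 100 normalized counts or more it was -0.11 and -0.05. The summed levels without Rn45s differed more, by -0.60 on the log2 scale in Ft1ko against WT and by -0.38 in Ft1sm22ko against WT, and counts of genes on both scales are given below. Markers of the atrium also set the WT hearts apart from both mutants. Of 13 such markers 8 were higher and 1 lower in each mutant, and their summed level was 3985 normalized counts in WT and 58237 in Ft1ko, and 5369 in WT and 77915 in Ft1sm22ko. Nppa, the atrial natriuretic peptide, had 701 in WT and 20283 in Ft1ko, and Myl7, an atrial myosin light chain, 55.6 and 18782. The part of the atrial share of the tissue in the results below was not tested.

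Glucose enters heart muscle through Slc2a4, which insulin brings to the cell surface, and through the more widely expressed Slc2a1. Glycolysis turns it into pyruvate in the cytosol, and the pyruvate dehydrogenase complex, which its kinases switch off, turns pyruvate into acetyl-CoA for the citric acid cycle in the mitochondrion. Several steps have isoenzymes, of which one is typical of striated muscle and another of many tissues. The heart before birth relies largely on glycolysis and lactate, and in the days after birth it comes to rely on mitochondrial oxidation, mostly of fatty acids.

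In Ft1ko hearts most of these genes were lower than in WT. Of the 39 genes, 25 were lower and 3 were higher, and 11 did not pass the test, with a median log2 fold change of -1.41. Over all genes tested 35.7% were called in this comparison, 16.1% as lower and 19.7% as higher. Restricted to genes averaging 100 normalized counts or more, the shares were 39.6%, 22.4% and 17.2%. In Ft1sm22ko hearts 9 of the 39 genes were lower and 3 higher, with a median of -0.34. Here 32.2% of all genes tested were called, 16% as lower and 16.2% as higher, and restricted to averages of 100 or more 39.8% were called, 21.2% as lower and 18.6% as higher. The share of members called was 30.8%, near that of all genes. Between the mutants, 24 of the 39 were higher in Ft1sm22ko than in Ft1ko and 1 was lower, with a median of 1.01. The background of that comparison was 19.8% called, 10.8% as higher and 9% as lower in Ft1sm22ko, and 24.4%, 14.8% and 9.54% with averages of 100 or more. Of the 39 genes, 35 had a lower log2 fold change in Ft1ko than in Ft1sm22ko, with the WT hearts shared by both comparisons. That count restates the direct comparison of the mutants and adds no evidence to it.

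**Figure D1:**
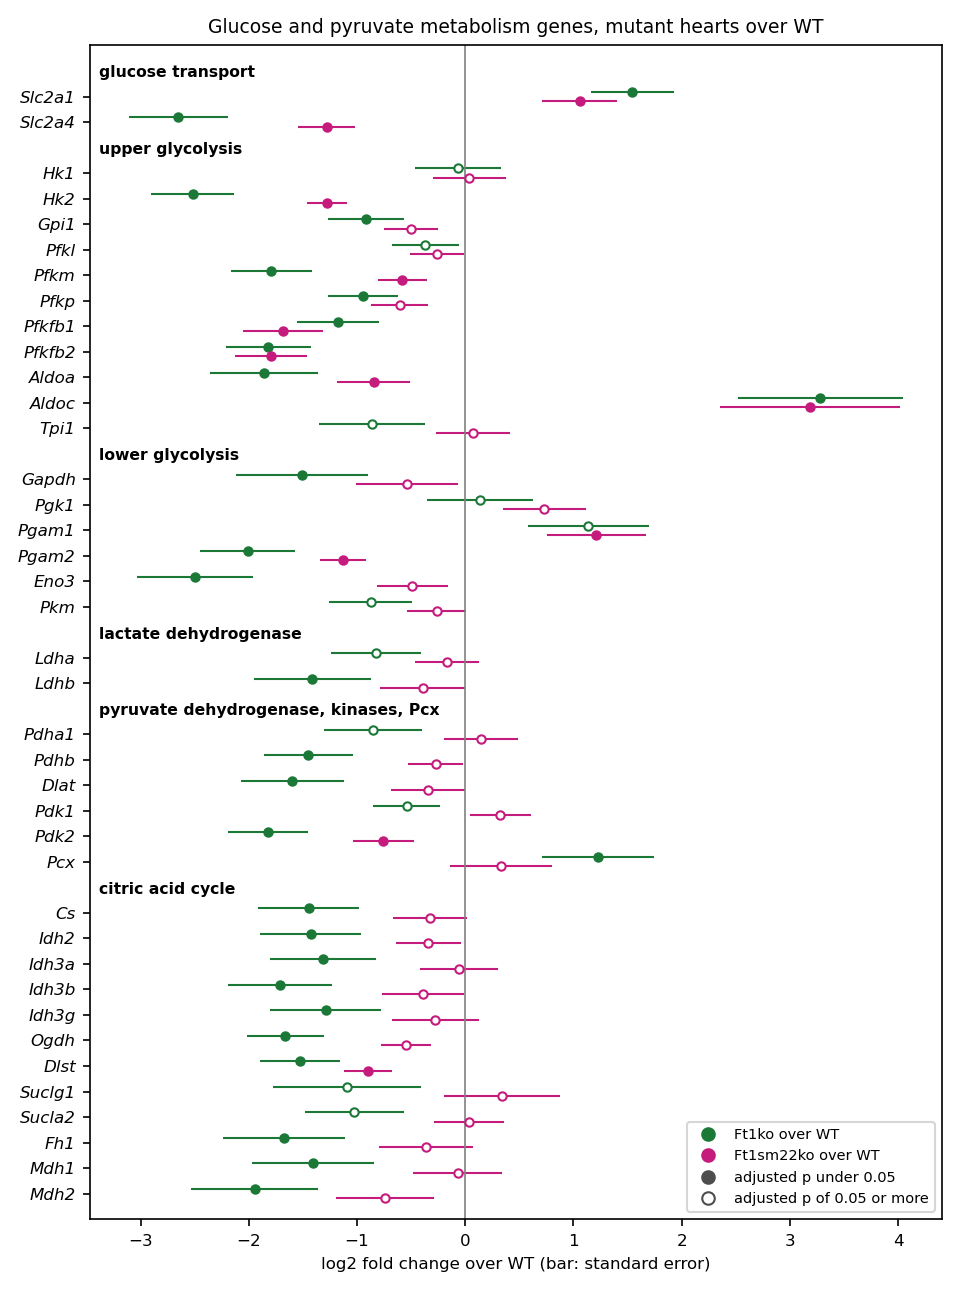
Log2 fold change of 39 genes over WT (x axis) in Ft1ko (green) and Ft1sm22ko (pink) hearts, by role. Points are the fitted values of the authors' deposited tables, bars 1 standard error, and filled points have an adjusted p under 0.05. The genes of the citric acid cycle lie between -1.95 and -1.03 in Ft1ko, and in Ft1sm22ko between -0.90 and 0.34.

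The count in Ft1ko depended on the scale. When fold changes were taken relative to the summed levels without Rn45s, 11 genes were lower and 4 higher in Ft1ko, and 6 lower and 5 higher in Ft1sm22ko. The shares of all genes given above do not apply to that scale, and its own shares are not reported here. Counts on it therefore cannot be set against a background. On that scale, 3 of the 12 genes of the citric acid cycle (Idh3b, Ogdh and Dlst) were lower in Ft1ko. Slc2a4, Hk2, Pfkm, Pfkfb2, Aldoa, Pgam2, Eno3 and Pdk2 were lower in Ft1ko on both scales. The comparison of the mutants moved less, with 19 genes higher in Ft1sm22ko and 1 lower on that scale. As a share of the summed levels without Rn45s, the 39 genes held 2.66% in WT and 1.48% in Ft1ko, and 2.65% in WT and 2.55% in Ft1sm22ko.

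To see which of these genes stand highest in WT hearts, levels were divided by the length of the principal transcript. Gapdh, which oxidizes glyceraldehyde phosphate, led with 25092 normalized counts per kilobase in WT. Aldoa, the aldolase of muscle, followed with 23771, Mdh2, the mitochondrial malate dehydrogenase, with 14201, and Pgam2, the phosphoglycerate mutase of muscle, with 14056. These 4 genes held 14.0%, 13.2%, 7.90% and 7.82% of the sum of the group in WT. At the other end stood Pfkfb1 with 49.6, Slc2a1 with 23.8, Pcx just below it and Aldoc with 1.59 normalized counts per kilobase. All 3 genes called higher in Ft1ko, which are Slc2a1, Aldoc and Pcx, were thus the 3 lowest of the group in WT. No error can be given for these levels.

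**Figure D2:**
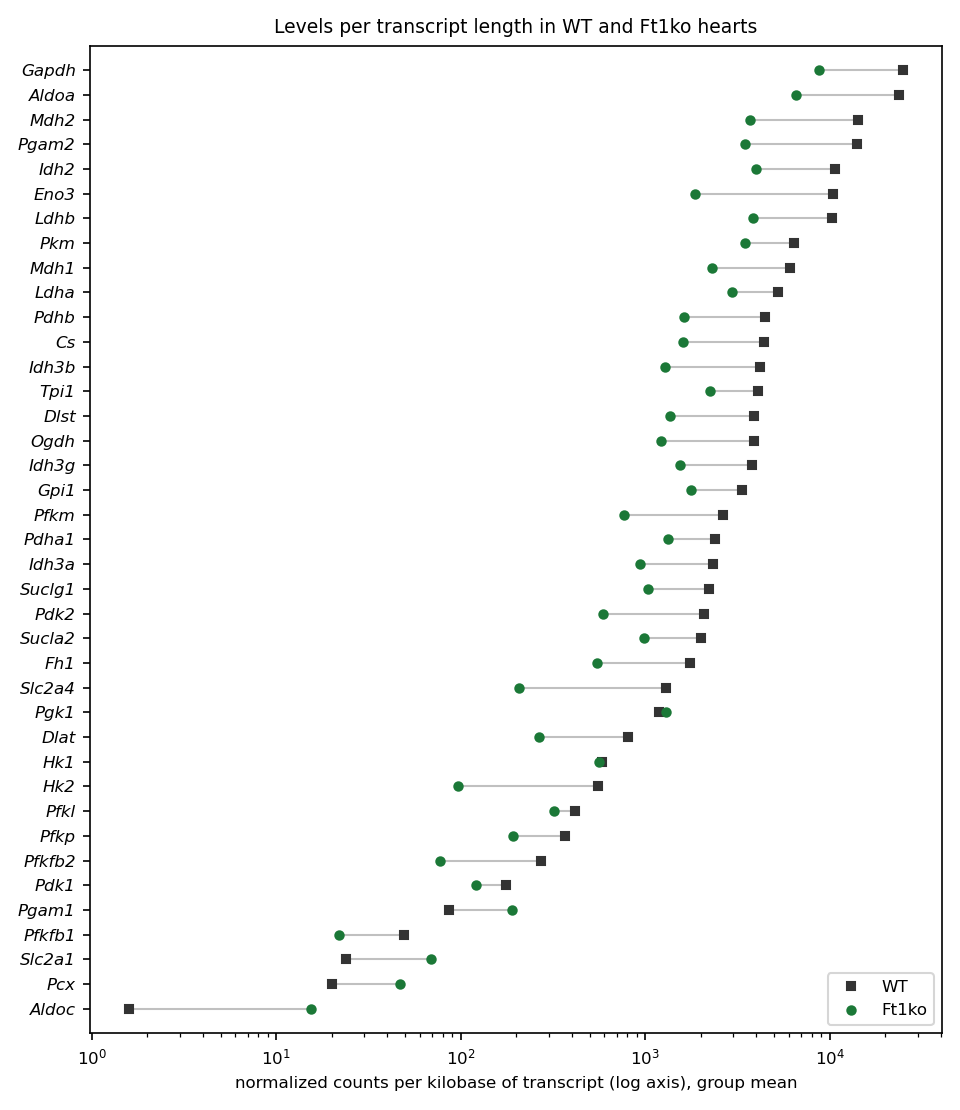
Group level of each gene in normalized counts per kilobase of transcript (x axis, log scale) in WT (squares) and Ft1ko (circles), ordered by the level in WT. Grey lines join both groups, and the levels have no error. Gapdh and Aldoa lead in both groups, with 25092 and 23771 in WT and 8803 and 6546 in Ft1ko.

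Some of these levels carry an uncertainty from gene copies. Stretches of 150 bases of the transcript were searched for in transcripts of all other genes. Of the 40 genes, 33 shared no stretch. In Gapdh 74.0% of the stretches were found in other genes, 48 of them in all, in Pgk1 66.1%, mostly in Pgk1-rs7, in Pgam1 37.9%, in Pgam1-ps2, and in Pfkfb2 23.0%, in Gm29427. Pkm with 2.89% and Pdhb with 2.05% shared few. How the authors counted reads that fit several places is not given in the sources used here, so the values of Gapdh, Pgk1, Pgam1 and Pfkfb2 are less certain than the others.

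The sequence before the start site is shown for 4 genes that changed in the same direction in both mutants, 2 that were higher and 2 that were lower. They are the 250 bases before the most upstream start listed by RefSeq on GRCm38.p6, read 5′ to 3′ on the strand of the gene. Capitals mark ACGTG or GCGTG on either strand, the core that hypoxia-inducible factors and some E-box factors bind. The 4 genes were picked by name and all carry this core. Pgam2 and Dlst, also lower in both mutants, had it in no window of this kind. Slc2a1 lies at chr4:119108495-119108744 on the plus strand, Aldoc at chr11:78322823-78323072 on the plus strand, Hk2 at chr6:82774455-82774704 on the minus strand and Pdk2 at chr11:95041372-95041621 on the minus strand.
Slc2a1: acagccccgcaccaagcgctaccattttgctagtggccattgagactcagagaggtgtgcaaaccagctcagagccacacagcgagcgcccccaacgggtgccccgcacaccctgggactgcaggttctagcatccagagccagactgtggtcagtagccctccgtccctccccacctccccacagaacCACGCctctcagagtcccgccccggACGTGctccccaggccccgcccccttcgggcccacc
Aldoc: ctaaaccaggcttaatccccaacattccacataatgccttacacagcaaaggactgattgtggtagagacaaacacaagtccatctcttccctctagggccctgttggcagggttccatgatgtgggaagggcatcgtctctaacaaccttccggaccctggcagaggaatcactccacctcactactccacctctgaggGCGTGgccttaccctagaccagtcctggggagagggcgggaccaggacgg
Hk2: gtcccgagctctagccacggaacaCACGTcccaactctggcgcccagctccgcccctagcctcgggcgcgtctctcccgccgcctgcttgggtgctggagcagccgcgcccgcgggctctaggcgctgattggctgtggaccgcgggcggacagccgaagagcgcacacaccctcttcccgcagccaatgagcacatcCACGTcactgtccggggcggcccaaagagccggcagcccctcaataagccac
Pdk2: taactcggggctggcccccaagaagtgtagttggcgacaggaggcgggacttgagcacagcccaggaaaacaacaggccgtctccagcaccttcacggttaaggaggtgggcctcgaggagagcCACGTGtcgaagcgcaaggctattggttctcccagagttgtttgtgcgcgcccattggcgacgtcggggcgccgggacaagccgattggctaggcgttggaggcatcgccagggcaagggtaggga
In Slc2a1 the marked letters begin 61 and 36 bases before the start, in Aldoc 50, in Hk2 226 and 52, and in Pdk2 126, where they form the E-box CACGTG.

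Such windows were found for 38 of the 40 genes, 62 windows in all, since a gene can have several starts. ACGTG was in 37.1% of these 62 windows and in 19.8% of the windows of all genes in the tables, counted on both strands, and GCGTG in 50% against 40.3%. CACGTG, which contains ACGTG, was in 12.9% against 7.64%. The core was found beside each kind of call, and no test was made of a link. Of the genes with a window, 17 of 23 that were lower in Ft1ko had ACGTG or GCGTG, 3 of 3 that were higher, and 9 of 11 that were not called. These counts are per gene, with either core in any window of the gene. The like share of all genes was not worked out, so they cannot be set against a background. AAGGTCA, the motif of estrogen-related receptors, was in 3.23% of the windows of these genes against 3.26%, the GC box GGGCGG in 45.2% against 52.0%, CATTCC, bound by Tead factors, in 9.68% against 11.3%, and the TATA box TATAAA in 1.61%, that of Pfkfb1, against 7.67%. The longer motifs of Mef2 (2 forms) and Srf were in 0 of the 62 windows, and in 0.165%, 0.336% and 0.0244% of the windows of all genes in the tables. These are counts of letters in a window and do not show binding.

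Glucose transport changed in opposite directions in its 2 genes, in both mutants. Slc2a4, the transporter that responds to insulin, had a level of 3293 normalized counts in WT and 524 in Ft1ko (log2 fold change -2.65, SE 0.46, DESeq2 adjusted p = 1.62e-07), and 4427 in WT and 1822 in Ft1sm22ko in the other table (log2 fold change -1.28, SE 0.26, DESeq2 adjusted p = 1.96e-05). Slc2a1, the transporter of many tissues and of red blood cells, was at 77.6 in WT and 226 in Ft1ko (log2 fold change 1.54, SE 0.38, DESeq2 adjusted p = 3.72e-04), and at 104 in WT and 217 in Ft1sm22ko (log2 fold change 1.06, SE 0.35, DESeq2 adjusted p = 0.0101). Slc2a4 was higher in Ft1sm22ko than in Ft1ko, by a log2 fold change of 1.38 (SE 0.37), whereas for Slc2a1 the mutants could not be told apart at this precision, with -0.49 and a 95% interval of -1.12 to 0.15. Per kilobase, Slc2a4 made up 98.2% of the sum of both transporters in WT, 91.5% in Ft1sm22ko and 74.96% in Ft1ko.

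Markers of red blood cells were, like Slc2a1, higher in both mutants than in WT. Of 10 such markers 4 have a row, and Hba-a1, Hba-a2, Hbb-bs, Hbb-bt, Ahsp and Epb42 were not analysed here. All 4 were higher in Ft1ko and 3 of 4 in Ft1sm22ko, and their summed level went from 880 in WT to 3643 normalized counts in Ft1ko and from 1185 in WT to 6108 in Ft1sm22ko. Alas2, which makes heme in red cell precursors, had log2 fold changes of 1.95 and 2.30, and Slc4a1, the anion exchanger of the red cell membrane, 2.81 and 3.09. Between the mutants 0 of the 4 were called, and their sum in Ft1sm22ko was 126% of that in Ft1ko. Other marker lists were higher than in WT too. By summed level, fibroblast markers stood at 307% of WT in Ft1ko and 333% in Ft1sm22ko, and fat markers at 485% and 174%. Lung epithelium stood at 1060% and 154%, and macrophages and leukocytes at 299% and 112%. The part of any of these markers in the change of Slc2a1 was not tested.

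Upper glycolysis, the steps that use ATP, had 7 of 11 genes lower and 1 higher in Ft1ko, with a median of -0.95, and 5 lower and 1 higher in Ft1sm22ko, with a median of -0.58. Hk2, the hexokinase of insulin-responsive tissue, fell from 3045 to 532 normalized counts in Ft1ko (log2 fold change -2.52, SE 0.38, DESeq2 adjusted p = 1.88e-09) and from 4097 to 1690.2 in Ft1sm22ko (log2 fold change -1.28, SE 0.19, DESeq2 adjusted p = 8.25e-10). Hk1, the hexokinase of most tissues, was at 2261 in WT and 2155 in Ft1ko, with a log2 fold change of -0.07 and a 95% interval of -0.85 to 0.71, and in Ft1sm22ko at 0.04 with an interval of -0.62 to 0.70. The direction of Hk1 changed with the scale. In WT both hexokinases stood close to each other per kilobase, and Hk2 made up 48.5% of their sum, against 27.5% in Ft1sm22ko and 14.7% in Ft1ko.

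Phosphofructokinase commits the sugar to glycolysis, and its muscle subunit Pfkm was at 7652 normalized counts in WT and 2209.7 in Ft1ko (log2 fold change -1.79, SE 0.37, DESeq2 adjusted p = 2.08e-05). In Ft1sm22ko Pfkm was lower by less, with a log2 fold change of -0.58 (SE 0.23, DESeq2 adjusted p = 0.0341), a call that was lost when fold changes were centred on the median of genes averaging 100 or more (adjusted p = 0.0560). The platelet subunit Pfkp was lower in Ft1ko (-0.95, SE 0.32) and at -0.60 in Ft1sm22ko, where it did not pass the test. The liver subunit Pfkl passed in neither mutant, with -0.37 and -0.26. Per kilobase Pfkm made up 86.5% of the sum of Pfkm and Pfkl in WT, 83.6% in Ft1sm22ko and 70.5% in Ft1ko.

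Pfkfb2 and Pfkfb1 make and remove the fructose bisphosphate that activates phosphofructokinase. Both genes fell in both mutants. Pfkfb2, the form of the heart, went from 1213 to 343 normalized counts in Ft1ko (log2 fold change -1.82, SE 0.39, DESeq2 adjusted p = 4.06e-05) and from 1642 to 473 in Ft1sm22ko (log2 fold change -1.80, SE 0.33, DESeq2 adjusted p = 1.06e-06). Between the mutants its log2 fold change was 0.04, with a 95% interval of -0.57 to 0.64. Pfkfb1, low in WT at 86.2 normalized counts, had -1.18 in Ft1ko and -1.68 in Ft1sm22ko, and both passed the test.

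Aldolase splits the sugar into 2 parts of 3 carbons, and its genes changed in opposite directions. Aldoa went from 35918 normalized counts in WT to 9891 in Ft1ko (log2 fold change -1.86, SE 0.50, DESeq2 adjusted p = 0.00124), and had a log2 fold change of -0.85 in Ft1sm22ko (SE 0.34, DESeq2 adjusted p = 0.0395). The second call was lost when fold changes were centred on the median of genes averaging 100 or more (adjusted p = 0.0548). Aldoc, the aldolase of the brain, was rare in WT at 4.44 normalized counts and stood at 43.2 in Ft1ko (log2 fold change 3.28, SE 0.77, DESeq2 adjusted p = 1.55e-04), and at 5.85 in WT and 53.2 in Ft1sm22ko (log2 fold change 3.18, SE 0.83, DESeq2 adjusted p = 9.88e-04). Aldoa still made up 99.8% of the sum of both per kilobase in Ft1ko. Gpi1, which turns glucose phosphate into fructose phosphate, was lower in Ft1ko (-0.92, SE 0.35) and at -0.50 in Ft1sm22ko. Tpi1, which interconverts both products of aldolase, was at -0.86 in Ft1ko and 0.07 in Ft1sm22ko, passed the test against WT in neither, and was higher in Ft1sm22ko than in Ft1ko by 0.94 (SE 0.34, DESeq2 adjusted p = 0.0359).

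Lower glycolysis, the steps that yield ATP, had 3 of 6 genes lower in Ft1ko, with a median of -1.19. Eno3, the enolase of muscle, was the gene with the largest difference between the mutants. It went from 16397 normalized counts in WT to 2903 in Ft1ko (log2 fold change -2.50, SE 0.54, DESeq2 adjusted p = 3.53e-05), and in Ft1sm22ko it was at 15675 against 21990.1 in WT (log2 fold change -0.49, SE 0.33, DESeq2 adjusted p = 0.265). In the direct comparison Eno3 stood at 25249 in Ft1sm22ko and 6248 in Ft1ko, 4.04-fold higher (log2 fold change 2.01, SE 0.40, DESeq2 adjusted p = 2.66e-05).

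Pgam2, the phosphoglycerate mutase of muscle, fell in both mutants, from 11807 to 2933 normalized counts in Ft1ko (log2 fold change -2.01, SE 0.44, DESeq2 adjusted p = 4.98e-05) and from 15888 to 7264 in Ft1sm22ko (log2 fold change -1.13, SE 0.21, DESeq2 adjusted p = 2.99e-06). The difference between the mutants was 0.89 with a 95% interval of 0.17 to 1.61, and it did not pass after adjustment (DESeq2 adjusted p = 0.0662). Pgam1, the form of most other tissues, was higher in Ft1sm22ko (1.21, SE 0.46, DESeq2 adjusted p = 0.0292) and at 1.14 in Ft1ko, where it did not pass (SE 0.56, DESeq2 adjusted p = 0.0997).

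Gapdh was lower in Ft1ko, from 35630.3 to 12500.1 normalized counts (log2 fold change -1.51, SE 0.61, DESeq2 adjusted p = 0.0387), and at -0.54 in Ft1sm22ko with a 95% interval of -1.46 to 0.39. Its call in Ft1ko was lost when fold changes were centred on the median of genes averaging 100 or more (adjusted p = 0.0577), as were those of Gpi1 (adjusted p = 0.0594), Idh3g (adjusted p = 0.0583) and Mdh1 (adjusted p = 0.0576). Gapdh is a gene often used to scale other measurements. Pgk1, the first step that yields ATP, was not called in either mutant, with log2 fold changes of 0.14 and 0.73, but was called higher in Ft1sm22ko relative to the summed levels without Rn45s (1.12, adjusted p = 0.0126). Pkm, which makes pyruvate, had -0.87 in Ft1ko (DESeq2 adjusted p = 0.0612) and -0.26 in Ft1sm22ko.

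Lactate dehydrogenase joins pyruvate and lactate. Ldhb, the subunit typical of heart, went from 13421 normalized counts in WT to 5035 in Ft1ko (log2 fold change -1.41, SE 0.54, DESeq2 adjusted p = 0.0281) and was at -0.39 in Ft1sm22ko, where it did not pass. Ldha, the subunit typical of skeletal muscle, was at -0.83 (SE 0.42, DESeq2 adjusted p = 0.109) and -0.17. Ldhb was higher in Ft1sm22ko than in Ft1ko by 1.02 (SE 0.32, DESeq2 adjusted p = 0.0126), and Ldha by 0.66, which did not pass. The difference between the fold changes of Ldhb and Ldha was smaller than its error in Ft1ko, at -0.59 with a rooted SE of 0.68, which is the root of the summed squared SE of both genes.

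All 6 genes around pyruvate dehydrogenase differed between the mutants, 5 higher and 1 lower in Ft1sm22ko, and relative to the summed levels without Rn45s 4 were higher and 1 lower. Pdhb, a subunit of the decarboxylase, went from 6725 normalized counts in WT to 2458 in Ft1ko (log2 fold change -1.45, SE 0.41, DESeq2 adjusted p = 0.00226). Dlat, which passes on the acetyl group, went from 3245 to 1073 (log2 fold change -1.60, SE 0.47, DESeq2 adjusted p = 0.00376). Pdha1, the other decarboxylase subunit, was at -0.85 in Ft1ko and did not pass (SE 0.46). In Ft1sm22ko the 3 genes were at -0.28, -0.34 and 0.15, none of them called. In Ft1sm22ko against Ft1ko they were higher by 1.18 (SE 0.31), 1.26 (SE 0.30) and 1.00 (SE 0.25).

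Both kinases of the group, which switch the complex off, were followed too. Pdk2 went from 4687 normalized counts in WT to 1326 in Ft1ko (log2 fold change -1.82, SE 0.37, DESeq2 adjusted p = 1.37e-05) and from 6299 to 3723 in Ft1sm22ko (log2 fold change -0.76, SE 0.28, DESeq2 adjusted p = 0.0258). Pdk1 was at -0.54 and 0.33, called in neither unless taken relative to the summed levels without Rn45s (0.71 in Ft1sm22ko, adjusted p = 0.0356), and higher in Ft1sm22ko than in Ft1ko by 0.87 (SE 0.28, DESeq2 adjusted p = 0.0149). Pcx, which turns pyruvate into oxaloacetate and is abundant in liver and fat, was the gene of the group that was higher in Ft1ko than in both others. It was at 81.2 normalized counts in WT and 190.2 in Ft1ko (log2 fold change 1.23, SE 0.51, DESeq2 adjusted p = 0.0483), a call lost when fold changes were centred on the median of all genes (adjusted p = 0.0802), and at 221 in Ft1sm22ko against 412 in Ft1ko in the direct comparison (log2 fold change -0.90, SE 0.27, DESeq2 adjusted p = 0.00727). In Ft1sm22ko against WT, Pcx was not called (log2 fold change 0.33, SE 0.47, DESeq2 adjusted p = 0.635). By summed level, markers of fat were also higher in Ft1ko than in both other groups. Unlike Pcx, some were called higher in Ft1sm22ko than in WT. Of 9 such markers 6 were higher in Ft1ko and 4 in Ft1sm22ko, and 3 were lower in Ft1sm22ko than in Ft1ko. Their summed level was 930 in WT and 4507 in Ft1ko, and 3505 in Ft1sm22ko against 9704 in Ft1ko. Car3, abundant in fat, had log2 fold changes of 6.38 and 4.15 against WT, and Ucp1, the uncoupling protein of brown fat, had 4.56 and 2.39, of which the second did not pass. Other marker lists were highest in Ft1ko too. The summed level of lung epithelium was 4587 in WT and 48607 in Ft1ko, and 15139 in Ft1sm22ko against 105307 in Ft1ko. That of macrophages and leukocytes was 1972 in WT and 5899 in Ft1ko, and 4770 in Ft1sm22ko against 12751 in Ft1ko. The part of any of these markers in the change of Pcx was not tested.

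The citric acid cycle oxidizes acetyl-CoA and yields NADH. In Ft1ko 10 of its 12 genes were lower and all 12 had negative fold changes, between -1.95 and -1.03 with a median of -1.44. In Ft1sm22ko 1 of 12 was lower, and the median was -0.33. In the direct comparison 11 of 12 were higher in Ft1sm22ko, with a median of 1.16, and the same 11 were higher when fold changes were taken relative to the summed levels without Rn45s. Summed over the 12 genes, the level in Ft1ko was 34.7% of that in WT, and in Ft1sm22ko 76.8%. As a share of the summed levels without Rn45s, they held 1.01% in WT and 0.531% in Ft1ko, and 1.00% in WT and 1.01% in Ft1sm22ko.

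Cs, the citrate synthase that opens the cycle, went from 12867 normalized counts in WT to 4717 in Ft1ko (log2 fold change -1.45, SE 0.47, DESeq2 adjusted p = 0.00841) and was at 13738 against 17250 in WT in Ft1sm22ko (log2 fold change -0.33, SE 0.34). The 3 subunits of the NAD-dependent isocitrate dehydrogenase, Idh3a, Idh3b and Idh3g, were lower in Ft1ko by fold changes of -1.31, -1.71 and -1.29. Idh3b, a regulatory subunit, had the smallest p of all members between the mutants, at 11164 in Ft1sm22ko and 4467 in Ft1ko (log2 fold change 1.32, SE 0.24, DESeq2 adjusted p = 5.45e-06). Idh2, the NADP-dependent form of the mitochondrion, was at -1.43 in Ft1ko (SE 0.47) and -0.34 in Ft1sm22ko.

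Ogdh and Dlst belong to the oxoglutarate dehydrogenase complex. Ogdh, which decarboxylates oxoglutarate, went from 15999 normalized counts in WT to 5056 in Ft1ko (log2 fold change -1.66, SE 0.35, DESeq2 adjusted p = 2.99e-05), and was at -0.55 in Ft1sm22ko (SE 0.23, DESeq2 adjusted p = 0.0523). Dlst, which passes on the succinyl group, was, of the 12 members of the cycle, the 1 gene that was lower in both mutants. It went from 10812 to 3747 in Ft1ko (log2 fold change -1.53, SE 0.37, DESeq2 adjusted p = 2.44e-04) and from 14556 to 7797 in Ft1sm22ko (log2 fold change -0.90, SE 0.22, DESeq2 adjusted p = 3.49e-04). It was also the 1 of these 12 not called between the mutants, at 0.64 with a 95% interval of 0.03 to 1.24.

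Suclg1 and Sucla2, subunits of succinyl-CoA ligase, were not called against WT in either mutant. Their log2 fold changes in Ft1ko were -1.09 (SE 0.68) and -1.03 (SE 0.46), and in Ft1sm22ko 0.34 and 0.03. Between the mutants Suclg1 was at 9151 in Ft1sm22ko and 3398 in Ft1ko (log2 fold change 1.43, SE 0.30, DESeq2 adjusted p = 1.03e-04), the largest difference of the cycle. Fh1, the fumarase, was lower in Ft1ko (-1.68, SE 0.56) and at -0.36 in Ft1sm22ko. Mdh2, the malate dehydrogenase of the mitochondrion, went from 20677 to 5362 in Ft1ko (log2 fold change -1.95, SE 0.59, DESeq2 adjusted p = 0.00443) and was at -0.74 in Ft1sm22ko (SE 0.45, DESeq2 adjusted p = 0.208). Its cytosolic partner Mdh1 was at -1.41 and -0.07.

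**Figure D3:**
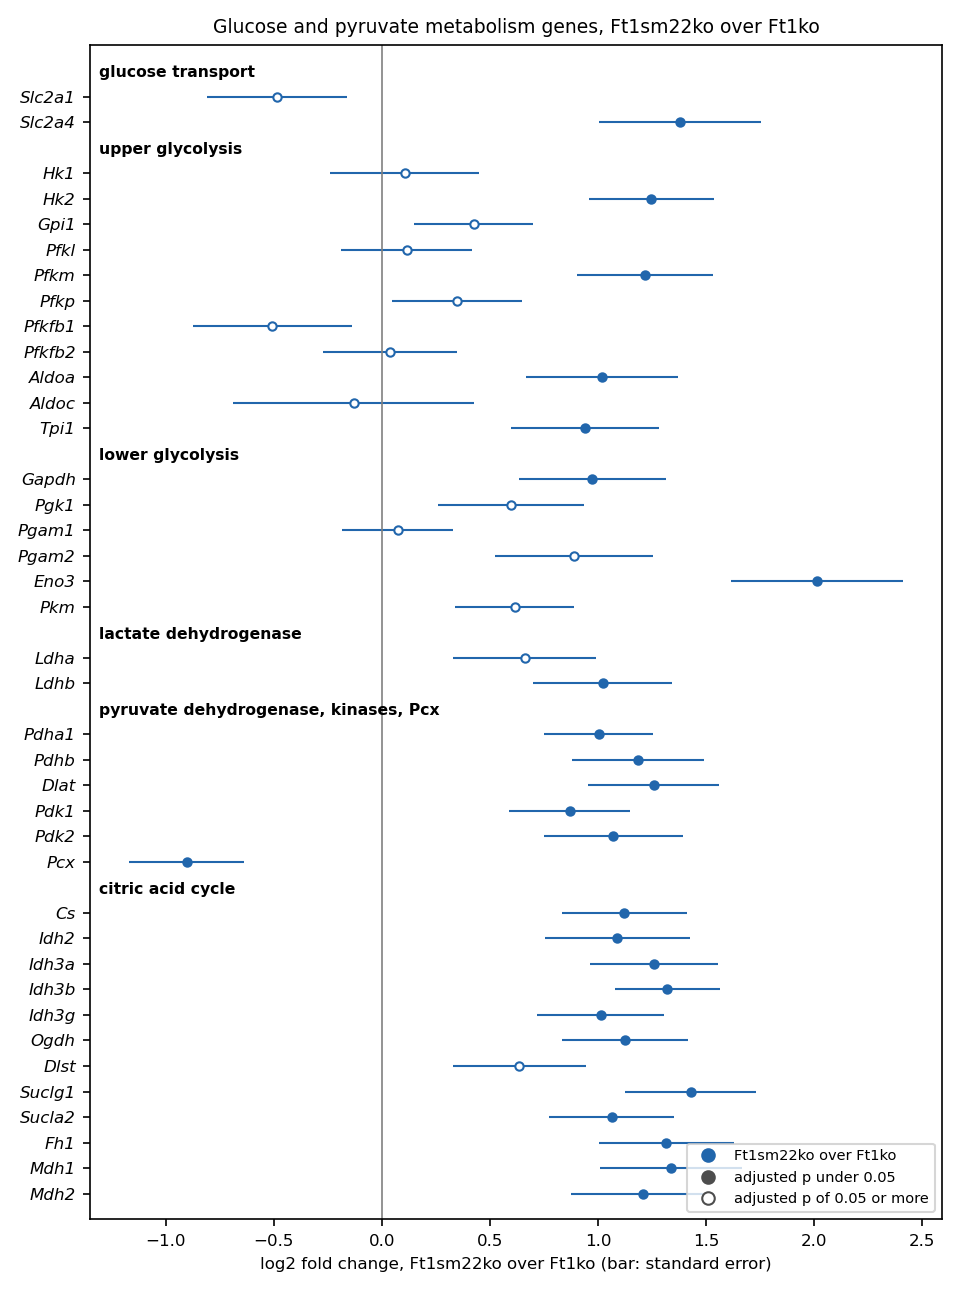
Log2 fold change of Ft1sm22ko over Ft1ko hearts (x axis) for 39 genes by role. Points are the fitted values of the authors' deposited tables, bars 1 standard error, and filled points have an adjusted p under 0.05. Of the 12 genes of the citric acid cycle 11 are filled and lie above 0, Eno3 is farthest right at 2.01, and Pcx is filled below 0.

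The calls of the 3 comparisons are set side by side here. The share of all genes with the same patterns was not worked out. These counts therefore describe the members and do not set them apart from other genes. Lower in Ft1ko, not called in Ft1sm22ko and higher in Ft1sm22ko than in Ft1ko were 14 genes, namely Gapdh, Eno3, Ldhb, Pdhb, Dlat, Cs, Idh2, Idh3a, Idh3b, Idh3g, Ogdh, Fh1, Mdh1 and Mdh2. Relative to the summed levels without Rn45s, 3 of these 14 (Eno3, Idh3b and Ogdh) were still called lower in Ft1ko. Lower in both mutants were 9 genes, of which Slc2a4, Hk2, Pfkm, Aldoa and Pdk2 were also higher in Ft1sm22ko than in Ft1ko, while Pfkfb1, Pfkfb2, Pgam2 and Dlst were not called between the mutants. Higher in both were 2 genes, Slc2a1 and Aldoc. No gene was called in opposite directions. Called in none of the 3 comparisons were Hk1, Pfkl, Pgk1, Pkm and Ldha. Beside them, 5 genes (Tpi1, Pdha1, Pdk1, Suclg1 and Sucla2) were called between the mutants alone. Of the 9 genes lower in both mutants, 5 belong to upper glycolysis and 1 to the citric acid cycle. Relative to the summed levels without Rn45s, Pfkfb1 lost its call in Ft1ko and Pfkm, Aldoa and Pdk2 theirs in Ft1sm22ko, which left 5 genes lower in both, 2 of them (Hk2 and Pfkfb2) in upper glycolysis. On that scale Pgam1 was called higher in Ft1ko, and Pgk1 and Pdk1 in Ft1sm22ko.

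Isoenzymes were compared in 11 pairs fixed by name, and 10 pairs had values. In most pairs the first gene is the one typical of heart or muscle, and in Mdh2 against Mdh1 that of the mitochondrion. Pdk2 and Pdk1 were paired as kinases of the same complex, and Pdk2 is not taken as the form typical of heart. Pfkm stands in more than 1 pair, so the pairs are not independent. The difference of the fold changes does not depend on the scale. In Ft1ko the first gene of the pair had the lower fold change in 10 of 10 pairs, and in Ft1sm22ko in 9 of 10. The differences were largest for Aldoa against Aldoc, with -5.14 in Ft1ko (rooted SE 0.92) and -4.03 in Ft1sm22ko (rooted SE 0.90), for Slc2a4 against Slc2a1, with -4.19 (rooted SE 0.59) and -2.34 (rooted SE 0.44), and for Pgam2 against Pgam1, with -3.15 (rooted SE 0.71) and -2.34 (rooted SE 0.51). Hk2 against Hk1 differed by -2.45 (rooted SE 0.55) and -1.31 (rooted SE 0.39), and Pdk2 against Pdk1 by -1.28 (rooted SE 0.48) and -1.08 (rooted SE 0.40). Pfkm against Pfkl differed by -1.42 in Ft1ko (rooted SE 0.49), and in Ft1sm22ko by -0.32, within 1 rooted SE (0.33). Differences within 1 rooted SE in at least 1 mutant were also seen for Pfkm against Pfkp, Pfkfb2 against Pfkfb1, Ldhb against Ldha and Mdh2 against Mdh1. These differences have no test, since the covariance of both genes over the hearts is unknown. In Ft1sm22ko against Ft1ko the difference was positive in 9 of 10 pairs.

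**Figure D4:**
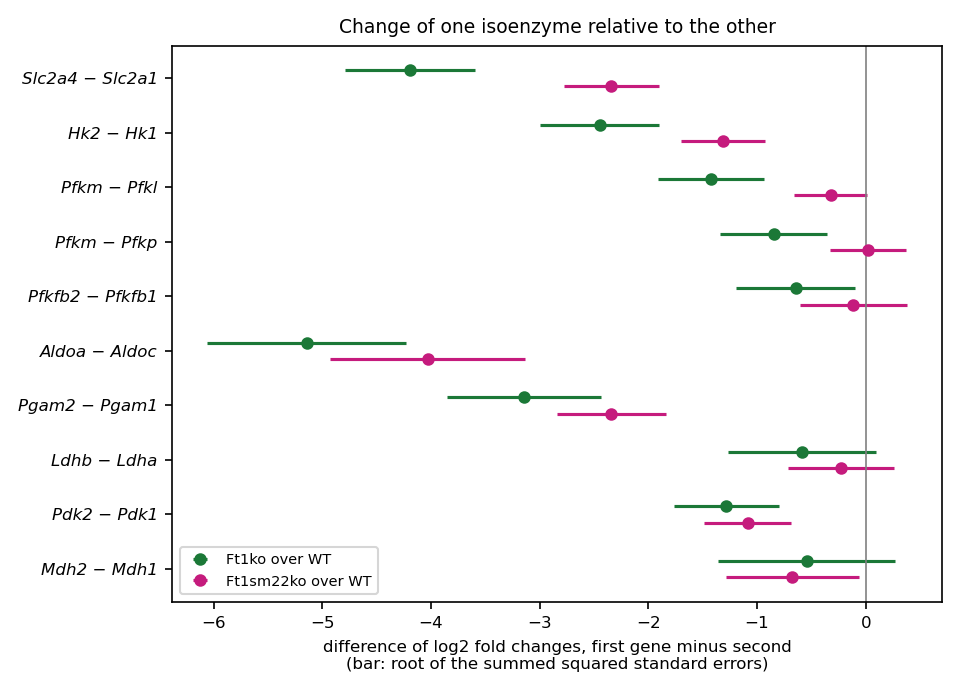
Difference of the log2 fold changes over WT of 10 isoenzyme pairs (x axis, first gene minus second) in Ft1ko (green) and Ft1sm22ko (pink). Bars are the root of the summed squared standard errors. All 10 pairs lie below 0 in Ft1ko, from -5.14 for Aldoa against Aldoc to -0.54 for Mdh2 against Mdh1.

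Genes of heart muscle moved with this group. Of 20 markers of cardiomyocytes 16 were lower and 2 (Myl4 and Myl7, which are also in the atrial list) were higher in Ft1ko, with a median of -2.42. In Ft1sm22ko 9 of 19 were lower and 2 higher, with a median of -0.86, and 13 of 20 were higher in Ft1sm22ko than in Ft1ko, with a median of 1.30. Their summed level in Ft1ko was 20.8% of that in WT, against 36.8% for the 39 genes described here, and in Ft1sm22ko 47.2% against 73.7%. Myh6, the main myosin of the mouse heart, had log2 fold changes of -2.37 and -1.44, and Tnnt2, the cardiac troponin T, -2.52 and -1.73. The part of the cardiomyocyte genes in the change of the metabolic genes was not tested. Endothelial markers were lower in 4 of 12 in Ft1ko, with a median of -0.14, and fibroblast markers were higher in 5 of 9, with a median of 0.74, as they were in 7 of 9 in Ft1sm22ko, with 1.83. Markers of lung epithelium were higher in 7 of 8 in Ft1ko, with a summed level of 4587 in WT and 48607 in Ft1ko. Sftpc, the surfactant protein of the lung alveolus, had 101 in WT and 26537 in Ft1ko. In Ft1sm22ko 3 of the 8 could be tested, of which 1 was higher and 1 lower. Their part was not tested either.

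**Figure D5:**
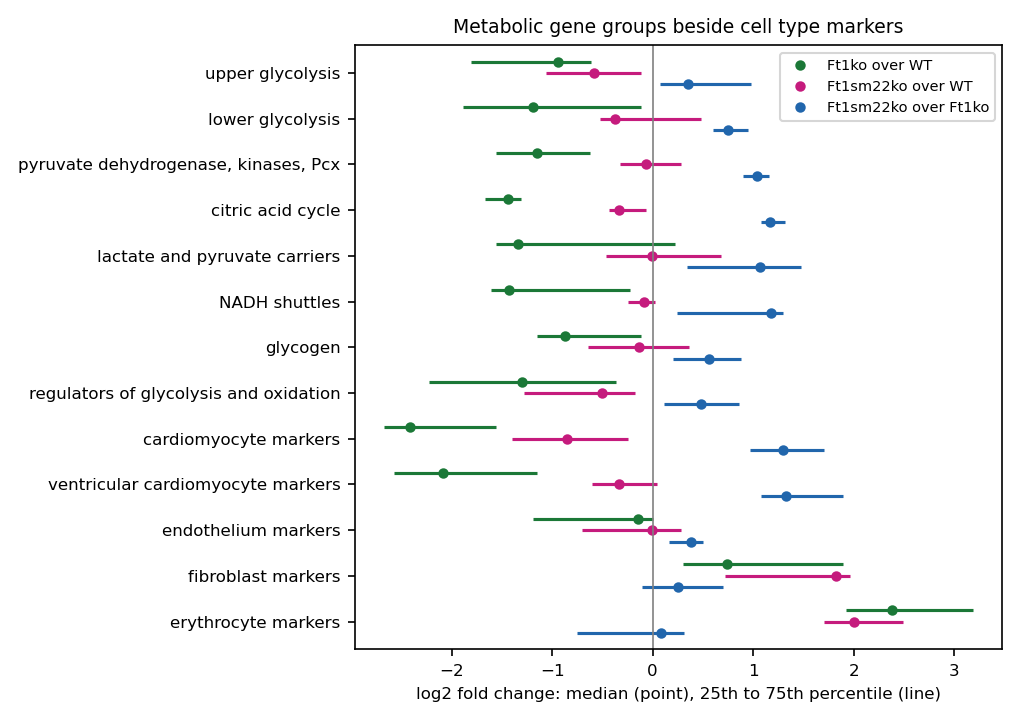
Median log2 fold change (points) and range from the 25th to the 75th percentile (lines) of groups of metabolic genes and of cell type markers, for Ft1ko over WT (green), Ft1sm22ko over WT (pink) and Ft1sm22ko over Ft1ko (blue). The citric acid cycle has medians of -1.44, -0.33 and 1.16, and the cardiomyocyte markers -2.42, -0.86 and 1.30.

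The genes around these steps were followed with 95 further genes in 7 lists, of which 93 have a row. In Ft1ko 45 of 91 tested were lower and 9 higher, with a median of -0.95. The share called was 59.3%, against 35.7% of all genes. In Ft1sm22ko 17 of 88 were lower and 7 higher, with a median of -0.23. The 27.3% called there was below the 32.2% of all genes. The 19.3% lower lay between the 16% of all genes and the 21.2% of those averaging 100 or more. Between the mutants 41 of 92 were higher in Ft1sm22ko and 3 lower, 47.8% called against 19.8% of all genes. Those shares of all genes are also the background of the single lists below. Relative to the summed levels without Rn45s, 21 were lower and 21 higher in Ft1ko, and 10 lower and 20 higher in Ft1sm22ko. The share of all genes called on that scale is not reported here.

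Pyruvate reaches the mitochondrion through a carrier made of Mpc1 and Mpc2. Mpc2 was lower in Ft1ko (-2.33, SE 0.58, DESeq2 adjusted p = 4.60e-04) and Mpc1 was at -1.39 (DESeq2 adjusted p = 0.0551), neither was called in Ft1sm22ko, and both were higher in Ft1sm22ko than in Ft1ko, by 1.61 and 1.62. Of the 6 carriers of lactate and pyruvate 3 were lower in Ft1ko and 1 higher. Slc16a1, a lactate carrier, had -1.29, its chaperone Bsg -1.62, and Slc16a3, the carrier of glycolytic cells, 1.14, all called.

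The other kinases of pyruvate dehydrogenase changed in opposite directions. Pdk4, which fasting and fatty acids induce, went from 7056 normalized counts in WT to 1359 in Ft1ko (log2 fold change -2.38, SE 0.40, DESeq2 adjusted p = 5.65e-08), and was at 7789 against 9479.8 in WT in Ft1sm22ko (log2 fold change -0.28, SE 0.38, DESeq2 adjusted p = 0.607). Pdk3, rare in WT at 39.5 normalized counts, was at 198 in Ft1ko (log2 fold change 2.33, SE 0.42) and also higher in Ft1sm22ko (2.38, SE 0.42), and between the mutants it was at 0.07 with a 95% interval of -0.52 to 0.66. Of the phosphatases that switch the complex on again, Pdp2 was lower in both, at -1.37 and -1.34, and Pdp1 was at -0.20 in Ft1ko and higher in Ft1sm22ko by 0.66. Dld, the subunit shared by the dehydrogenase complexes, was lower in Ft1ko at -0.99, and Pdhx, which binds it, at -1.14. Neither was called in Ft1sm22ko.

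Of the rest of the citric acid cycle, the succinate dehydrogenase subunits Sdhb, Sdhc and Sdhd were lower in Ft1ko, with log2 fold changes of -2.04, -1.67 and -1.17, while Sdha was at -0.71 and did not pass. None of the 4 was called in Ft1sm22ko. Ogdhl, an oxoglutarate dehydrogenase close to Ogdh, was lower in both mutants, at -3.70 in Ft1ko and -2.76 in Ft1sm22ko. Me3, a malic enzyme of the mitochondrion, was at -2.51 in Ft1ko and -0.74 in Ft1sm22ko. Pck1, which makes phosphoenolpyruvate in liver and fat, was higher in both, at 3.76 and 2.15, beside the rise of the fat markers, whose part was not tested.

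All 5 called genes of the NADH shuttles, Got1, Got2, Slc25a11, Slc25a12 and Slc25a13, were lower in Ft1ko, with fold changes from -1.62 to -1.32, and none of the 8 shuttle genes was called in Ft1sm22ko. Got1 and Got2 are aminotransferases and the others carriers of the malate-aspartate shuttle, which brings the NADH of glycolysis into the mitochondrion. Among 16 genes of glycogen 7 were lower and 1 higher in Ft1ko, and 4 lower and 1 higher in Ft1sm22ko. In Ft1ko 50% of the 16 were called, against 35.7% of all genes. In Ft1sm22ko the share was 31.25%, near the 32.2% of all genes. Pygm, the phosphorylase of muscle, was at -2.17 and -0.78, and Phkg1, the catalytic subunit of phosphorylase kinase in muscle, at -2.62 and -1.51, all called. Gbe1, the branching enzyme, was at 0.20 in Ft1ko and higher in Ft1sm22ko by 0.83.

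Regulators of these genes were lower in 10 of 17 in Ft1ko and 7 of 17 in Ft1sm22ko, where 1 was higher. That gene is Hif1a, a subunit of the hypoxia-inducible factor, named after its values were seen, with a log2 fold change of 0.89 in Ft1sm22ko (SE 0.27, DESeq2 adjusted p = 0.00512) and 0.47 in Ft1ko, which did not pass. Mlxipl, the glucose-sensing factor of glycolytic genes, had log2 fold changes of -2.98 and -2.51 in Ft1ko and Ft1sm22ko. Esrra, an estrogen-related receptor that acts on mitochondrial genes, had -2.26 and -1.60, its coactivator Ppargc1a -2.23 and -1.39, and Ppargc1b -2.90 and -3.49, and Ppara, the receptor for fatty acids, had -2.23 and -1.28. All these passed the test. For Ppargc1a the paper reports the opposite direction by quantitative PCR, a significant upregulation in hearts of both mutants at the same age. The cause of this disagreement was not tested, so the direction of Ppargc1a is not settled. Egln1 and Egln3, which mark hypoxia-inducible factors for decay, were lower in Ft1ko, at -1.38 and -1.43, and not called in Ft1sm22ko.

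Of the other genes of glycolysis, Pfkfb3, the inducible partner of Pfkfb2, was higher in Ft1ko by 1.37 (SE 0.34) and at 0.58 in Ft1sm22ko. Tigar, which removes fructose bisphosphate, was lower in both, at -1.61 and -0.62. Fbp2, the fructose bisphosphatase of muscle, was lower by -3.80 in Ft1ko and -1.21 in Ft1sm22ko. Bpgm, which makes bisphosphoglycerate in red blood cells, was higher in both, at 1.67 and 1.35, beside the rise of the red cell markers, whose part was not tested. Ldhd, the dehydrogenase of D-lactate, was lower in both mutants, with -2.71 and -1.58.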

How the data were processed

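TRIzol was used to extract RNA from cardiac tissue, and a stranded kit, Universal Plus mRNA-Seq, to prepare libraries. The authors aligned reads with STAR to a reference that their records name hg38, although gene names are mouse symbols, and counted them per gene (StringTie and HTSeq are named, versions not given in the sources used here). The signal the authors deposited is a normalized count averaged over all hearts of a comparison, scaled by the size factors of their DESeq2 run. Fold changes and SE were deposited on a log2 scale, and their ratio equals the Wald score. This equality cannot show whether the fold changes were shrunken. A p-value for the Wald score was deposited too, raw and adjusted. Depth per library is unknown. Since no value per heart was analysed here, no test across hearts could be fitted and all p rest on the authors' model. Replicates are separate animals.

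The tables were turned so that the mutant stands over WT and Ft1sm22ko over Ft1ko. The p were adjusted again by Benjamini-Hochberg over 16748, 16661 and 17169 genes (python 3.11.15, scipy 1.17.1, pandas 2.3.3), with a threshold of 0.05. Of the steps, only the adjustment and calling were tried on simulated data, with normal noise of the given SE around planted fold changes. That noise follows the assumption of the Wald test itself, so the trial does not check the authors' model. The members, lists and alternatives were chosen with earlier results of these data known. All members are named, with Aktip, of each pathway list genes among the 4 smallest p of a comparison or fixed by name, and of marker lists the 2 of highest signal for the lists described. Some genes that this rule names are not reported here. Transcript lengths are those of GENCODE M21 (GRCm38). Start sites and sequences are from RefSeq.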

Additional observations from a re-analysis of the deposited data

Results flagged for a closer look

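The results below were picked because the effects of both mutants against WT differed by a test of the difference itself, the authors' DESeq2 comparison of Ft1sm22ko with Ft1ko (Benjamini-Hochberg adjusted p under 0.05 over all genes of that table, of which 19.8% were called). Of the 39 members 25 met this, 24 higher in Ft1sm22ko and 1 lower. No value per heart was analysed here, so it is not known in how many hearts each direction was seen, and outlying hearts could not be looked for.

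Among the genes of glucose entry and glycolysis, the log2 fold change of Ft1sm22ko over Ft1ko was 1.38 for Slc2a4, 1.25 for Hk2, 1.22 for Pfkm, 1.02 for Aldoa, 0.94 for Tpi1, 0.97 for Gapdh and 2.01 for Eno3. It was 1.02 for Ldhb. Among the genes of pyruvate entry it was 1.00 for Pdha1, 1.18 for Pdhb, 1.26 for Dlat, 0.87 for Pdk1 and 1.07 for Pdk2, and -0.90 for Pcx, the member that was lower in Ft1sm22ko. Among the genes of the citric acid cycle it was 1.12 for Cs, 1.09 for Idh2, 1.26 for Idh3a, 1.32 for Idh3b, 1.01 for Idh3g, 1.12 for Ogdh, 1.43 for Suclg1, 1.06 for Sucla2, 1.32 for Fh1, 1.34 for Mdh1 and 1.21 for Mdh2.

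Other genes fixed by name met it as well, with 2.10 for Pdk4, 1.62 for Mpc1, 1.61 for Mpc2, 0.94 for Dld, 0.92 for Pdhx, 1.48 for Sdhb, 1.03 for Sdhc and 1.27 for Sdhd. Sdha, at 0.82, did not pass (DESeq2 adjusted p = 0.0542).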

How the results depend on the processing

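A Bonferroni adjustment left 5 members changed in Ft1ko, 4 in Ft1sm22ko and 3 in the direct comparison, and 14, 5 and 8 other pathway genes. The shares of all genes called under the alternatives of this section are not reported here. A limit of 1 on the absolute log2 fold change left 24 other pathway genes between the mutants. Moving fold changes by the summed levels without Rn45s, an alternative chosen after seeing the data, gave 15 members changed in Ft1ko, 4 higher and 11 lower, in place of 28. It turned the sign of values that were not called, to 0.53 for Hk1, 0.23 for Pfkl and 0.062 for Pdk1 in Ft1ko, to 0.12 for Pfkl, 0.12 for Pkm, 0.22 for Ldha, 0.11 for Pdhb, 0.040 for Dlat, 0.056 for Cs, 0.043 for Idh2, 0.33 for Idh3a, 0.11 for Idh3g, 0.022 for Fh1 and 0.32 for Mdh1 in Ft1sm22ko, and to -0.12 for Hk1, -0.11 for Pfkl, -0.19 for Pfkfb2 and -0.15 for Pgam1 between the mutants. Centring on the median of genes with a mean of at least 100 turned Hk1 in Ft1ko to 0.042, and centring on that of all genes turned Hk1 and Sucla2 in Ft1sm22ko to -0.019 and -0.023. Both centrings, the deposited adjusted p and a mean of at least 10 or 100 kept all 6 counts within 1.5 times, and so did the limit on the fold change for the other 5. The difference of both mutants against WT came within 0.0327 of the direct value in 39 of 39 members and within 0.0371 in 10 of 10 isoenzyme pairs. Since all comparisons rest on the same hearts, this closeness follows from the arithmetic and is no independent check of the results. No paired analysis was possible because the files used here give no value for a single heart. For that reason leaving out each heart was not run. Depth and the spread between hearts are unknown, and the group levels have no error.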
